A study of Mus musculus with 10 samples.

Results

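The miR-302/miR-367 cluster is a group of 5 miRNA hairpins, Mir302a, Mir302b, Mir302c, Mir302d and Mir367, each of which can give a 5p and a 3p mature arm. The cluster was examined by summing, for each of its 10 mature arms, the small RNA reads of 18 to 26 nt that matched the hairpin. Of the 10 arms, 9 had reads in at least 1 library, and 8 of these passed the low-count filter among the 561 arms tested in the whole data set. The 10 libraries came from male mouse embryonic stem cell (mESC) lines differentiated for 6 days as embryoid bodies. Mouse primordial germ cell-like cells (mPGCLCs) were sorted from these bodies, and the surrounding cells were kept as non-PGCLCs. E14 (129/Ola, without a reporter) and BG5 (Blimp1-GFP, C57BL/6J/DBA/129) each gave 2 mPGCLC and 2 non-PGCLC libraries, and SGET (Stella-GFP Esg1-tdTomato, B6CBA/129) gave 2 non-PGCLC libraries. SGET mPGCLCs were not analysed here. The study's methods give a sort on Ssea1 with Cd61 for E14 and on Ssea1 with Blimp1-GFP for BG5, whereas the sample labels give the SGET reporter gate for every sample.

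A miRNA is cut from its hairpin and loaded into an Argonaute protein, which it guides to messenger RNAs that pair with its seed, the bases from position 2 to position 8. The miR-302/miR-367 cluster is transcribed as 1 primary RNA and is known as the characteristic miRNA cluster of primed, epiblast-type pluripotent cells. The miR-290 cluster, which shares the seed of several miR-302 arms, is its counterpart in naive mESCs and early germ cells. Both sets of miRNAs are known to repress cell cycle inhibitors and promote rapid division.

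On GRCm38 the 5 hairpins lie on the plus strand of chromosome 3 in the order Mir302b, Mir302c, Mir302a, Mir302d and Mir367, together covering 580 nt (chr3:127545228-127545807). They stand in intron 8 of a 13-exon transcript of Larp7, in the opposite orientation to Larp7, which encodes a protein that binds 7SK RNA. The RefSeq non-coding gene Gm51018 (chr3:127545089-127546903, plus strand) contains all 5 hairpins, and the first of them starts 139 nt after the start of Gm51018.

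The mature sequences below are those of RefSeq (GRCm38.p6, plus strand) and are shown because the arms are distinguished by their seeds, in capitals. RefSeq sequences were matched for 9 of the 10 arms.

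miR-302b-3p (chr3:127545275-127545297): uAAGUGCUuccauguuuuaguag
miR-302d-3p (chr3:127545665-127545687): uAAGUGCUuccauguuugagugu
miR-302c-3p (chr3:127545406-127545427): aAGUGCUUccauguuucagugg
miR-367-3p (chr3:127545779-127545800): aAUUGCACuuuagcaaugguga
miR-302a-5p (chr3:127545501-127545522): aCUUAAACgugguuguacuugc
miR-302b-5p (chr3:127545238-127545260): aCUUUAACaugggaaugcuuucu
miR-302c-5p (chr3:127545368-127545389): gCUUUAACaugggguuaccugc
miR-302d-5p (chr3:127545629-127545651): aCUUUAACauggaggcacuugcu
miR-367-5p (chr3:127545741-127545761): aCUGUUGCuaacaugcaacuc

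miR-302b-3p and miR-302d-3p have the same seed, and 3 later bases separate them (U18G, A22G and G23U, with the base of miR-302b-3p first and positions counted from 1 at the 5′ end). The seed of miR-302c-3p is shifted by 1 base from theirs, and miR-367-3p belongs to a separate seed family. miR-302b-5p, miR-302c-5p and miR-302d-5p share 1 seed, while that of miR-302a-5p differs. Only 30 reads in all 10 libraries could not be divided between miR-302a-3p and miR-302b-3p.

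The cluster gave 118807 reads over the 10 libraries, of which miR-302b-3p made up 57.6%, miR-302d-3p 22.3%, miR-302a-5p 12.5% and miR-302a-3p 3.89%. The 3p arms together held 85.1% of the reads. The remaining arms were scarce, with 1.33% from miR-302d-5p, 0.967% from miR-302c-5p, 0.869% from miR-302c-3p, 0.357% from miR-367-3p and 0.135% from miR-302b-5p. No read of miR-367-5p was found in any library, which allows up to 0.208 to 0.404 RPM at 3 reads a library. RPM is the number of reads scaled to all reads of the library (reads-per-million).

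The libraries held 7421061 to 14444567 reads, and 14.97% to 34.5% of these fell in miRNA arms. The libraries of a group, labelled as replicates, differed beyond sampling noise, with a chi-square over arms of 134 to 449 per degree of freedom. Random bases at the adapter ends were not used to count molecules, so floors cover counting error only.

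The cluster was highest in BG5 mPGCLCs, at 5088 and 4878 RPM in the 2 libraries. E14 mPGCLCs had 443 and 332 RPM, E14 non-PGCLCs 389 and 438 RPM, and BG5 non-PGCLCs 396 and 354 RPM. These 3 groups overlapped one another, and SGET non-PGCLCs were below them at 171 and 75.6 RPM. BG5 mPGCLCs therefore held 13.3 times the mean RPM of BG5 non-PGCLCs and 12.9 times that of E14 mPGCLCs. As bulk samples, these libraries do not tell fewer cells of a type from less RNA per cell.

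**Figure D1:**
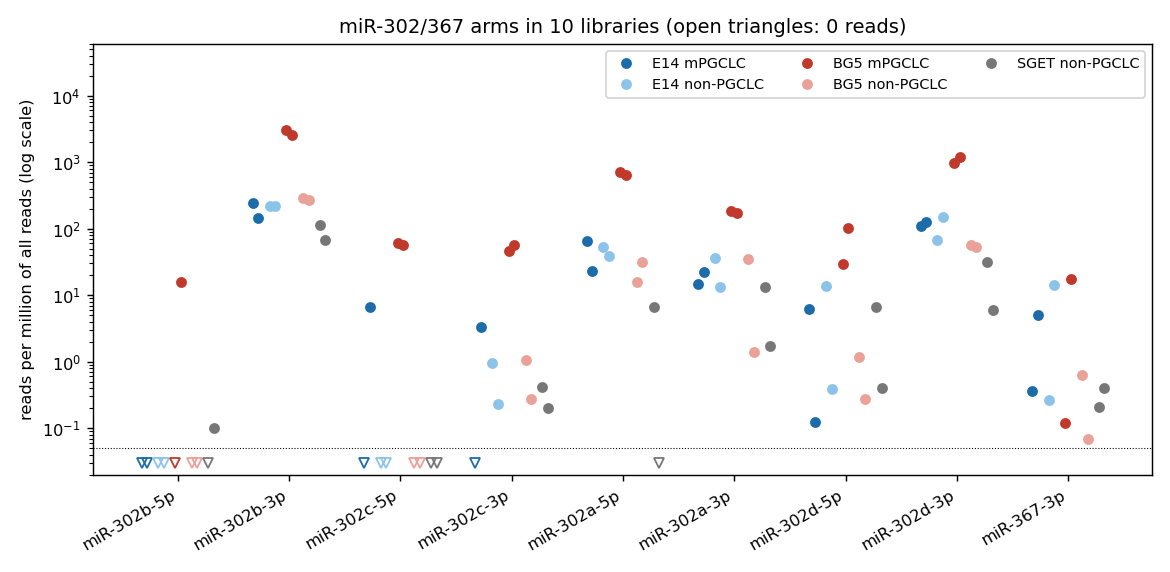
Level in RPM of all reads (log scale) of the 9 miR-302/miR-367 arms with reads, with 1 point for each of the 10 libraries, coloured by group. Open triangles below the dotted line mark libraries with 0 reads. For miR-302b-3p both BG5 mPGCLC libraries (3068 and 2605 RPM) lie above all other libraries, which does not hold for miR-302b-5p and miR-367-3p.

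The first question was whether the germ cell-like cells of each line differed from the cells around them. In BG5 miR-302b-3p, miR-302d-3p and miR-302a-5p were called higher in mPGCLCs. miR-302b-3p, the main arm with the seed AAGUGCU, was at 3068 and 2605 RPM in BG5 mPGCLCs against 287 and 266 RPM in BG5 non-PGCLCs. It rose by a log2 fold change of 4.05 (SE 0.44, edgeR quasi-likelihood test, adjusted p = 1.72e-06). The fitted fold changes are after TMM scaling, whereas the ratio of mean RPM values was 10.3 for this arm. miR-302d-3p, with the same seed, was at 987 and 1195 RPM against 56.2 and 53.9 RPM and rose by a log2 fold change of 5.04 (SE 0.80, edgeR adjusted p = 0.000133). For both arms the groups were far apart, and the libraries of a group lay close together.

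miR-302a-5p was the most-read 5p arm of the cluster. It was at 709 and 651 RPM in BG5 mPGCLCs against 15.6 and 31.9 RPM in BG5 non-PGCLCs, and rose by a log2 fold change of 5.44 (SE 1.42, edgeR adjusted p = 0.0127). Without BG5 mPGCLC replicate 2 its log2 fold change was 5.22 and the edgeR adjusted p was 0.0595. Its partner miR-302a-3p was at 185 and 174 RPM against 34.8 and 1.38 RPM, and its log2 fold change of 4.28 did not pass (SE 1.66, edgeR adjusted p = 0.122). The BG5 non-PGCLC libraries stood far apart for this arm, and without BG5 non-PGCLC replicate 1, the higher of them, the log2 fold change was 7.61 with an edgeR adjusted p of 0.0344. It passed in 5 alternatives in all, DESeq2 among them (adjusted p = 0.0150).

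Of the 8 tested arms of the cluster, 3 were called higher in BG5 mPGCLCs, beside 8.38% of all 561 tested arms. DESeq2 called 7 of the 8, beside 121 of all 561 arms in either direction. Over all arms edgeR called 47 higher and 32 lower. Scaling on total reads without TMM, which moved the median of all arms by -0.69, gave 28 higher and 41 lower. miR-302c-3p and miR-302c-5p passed the low-count filter through BG5 mPGCLCs alone, so they had to differ between these groups, and no support is taken from the count.

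The scarce arms are given by their reads, and no support for a direction is taken from either arm of miR-302c. miR-302c-3p, whose seed is shifted by 1 base, had 386 and 588 reads in BG5 mPGCLCs against 10 and 4 reads in BG5 non-PGCLCs, a ratio of 78.1 between the mean RPM values. miR-302c-5p had 505 and 591 reads against 0 and 0, at least 227-fold higher when 3 reads a library are taken as the floor. miR-302d-5p had 246 and 1057 reads against 11 and 4. None of these 3 arms passed the test in BG5 (edgeR adjusted p = 0.408, 0.160 and 0.234).

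miR-367-3p and miR-302b-5p each rested on single libraries. miR-367-3p, the only cluster arm with the seed AUUGCAC, had 180 reads in BG5 mPGCLC replicate 2 and 1 read in replicate 1. It also had 184 reads in E14 non-PGCLC replicate 2 and 40 in E14 mPGCLC replicate 2, and between 1 and 6 reads in the other 6 libraries besides BG5 mPGCLC replicate 1. miR-302b-5p had 159 reads in BG5 mPGCLC replicate 2, 1 read in SGET non-PGCLC replicate 2 and 0 elsewhere. miR-367-3p was called in none of the 8 comparisons, and miR-302b-5p did not pass the low-count filter and was not tested.

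In E14 none of the 8 tested arms was called between mPGCLCs and non-PGCLCs, beside 2.85% of all tested arms called in either direction. None of the 8 had an unadjusted edgeR p under 0.05, and DESeq2 called 0. Over all arms 3 were called higher and 13 lower, and without TMM 0 and 8. The split was 1 and 25 with miRNA-arm reads as library size, 1 and 11 with TMM without the miR-290 cluster, and 19 and 36 with DESeq2. miR-302b-3p was at 245 and 146 RPM in E14 mPGCLCs and at 218 and 221 RPM in E14 non-PGCLCs. Its log2 fold change was -0.35 (SE 0.39, approximate 95% interval -1.11 to 0.40, edgeR adjusted p = 0.797). miR-302d-3p was at 112 and 125 RPM against 66.6 and 150 RPM, with a log2 fold change of -0.09 (SE 0.67, approximate 95% interval -1.41 to 1.23, edgeR adjusted p = 1). On RPM of all reads the mPGCLC libraries lay between or around the non-PGCLC libraries for both arms. Scaled to miRNA-arm reads instead, miR-302b-3p was at 711 and 463 in E14 mPGCLCs against 948 and 1235 in E14 non-PGCLCs, and the cluster sum at 1287 and 1050 against 1691 and 2451, so that mPGCLCs were lower without overlap.

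miR-302a-5p was at 65.3 and 23.2 RPM in E14 mPGCLCs and at 52.7 and 39.2 RPM in E14 non-PGCLCs. miR-302a-3p was at 14.9 and 22.2 RPM against 36.7 and 13.5 RPM. The libraries of the groups overlapped for both arms of this hairpin. The intervals for these arms are wide, so a change of several fold in E14 is within them (miR-302a-5p, log2 -2.52 to 2.08).

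The difference between the lines was itself tested with an interaction term. The mPGCLC effect was larger in BG5 than in E14 by a log2 value of 4.398 for miR-302b-3p (SE 0.57, edgeR adjusted p = 4.42e-05) and of 5.13 for miR-302d-3p (SE 1.01, edgeR adjusted p = 0.00234). These were the 2 arms of the cluster called, beside 3.92% of all tested arms called in that direction. Over all arms 22 were called higher and 10 lower, and scaling without TMM gave 14 and 17. The interaction of miR-302a-5p was 5.66 and did not pass (SE 1.77, edgeR adjusted p = 0.0693), but it passed in 9 of 20 alternatives (log2 4.89 to 6.67, adjusted p from 5.51e-05 to 0.236 by edgeR or DESeq2).

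Averaged over both lines, miR-302b-3p was higher in mPGCLCs by a log2 fold change of 1.85 (SE 0.28, edgeR adjusted p = 9.91e-05) and miR-302d-3p by 2.47 (SE 0.50, edgeR adjusted p = 0.00163). These 2 of 8 arms were called beside 7.66% of all tested arms in that direction, with 43 called higher and 40 lower, or 30 and 45 without TMM and 34 and 53 with miRNA-arm reads as library size. miR-302a-5p had an average of 2.61 that did not pass (SE 0.88, edgeR adjusted p = 0.0580; past the threshold in 10 of 20 alternatives). The averages combine a large change in BG5 with values near 0 in E14, and the lines differed from each other as given above.

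**Figure D2:**
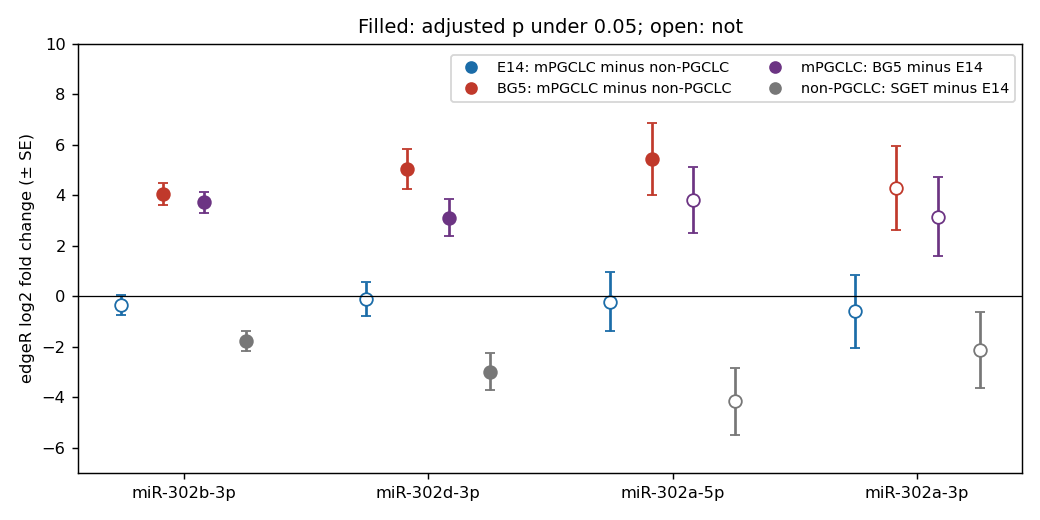
edgeR log2 fold changes (points) with their standard errors (bars) of 4 miR-302 arms in 4 comparisons, from all 10 libraries. Filled points have an adjusted p under 0.05. The BG5 values run from 4.05 to 5.44 and the E14 values from -0.60 to -0.09.

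A further comparison set the lines against each other within each cell type. Between the mPGCLCs of BG5 and E14, miR-302b-3p was higher in BG5 by a log2 fold change of 3.72 (SE 0.43, edgeR adjusted p = 1.28e-05) and miR-302d-3p by 3.12 (SE 0.73, edgeR adjusted p = 0.00742). These were 2 of the 8 tested arms, beside 5.35% of all tested arms called higher. Over all arms 30 were called higher and 27 lower, and with miRNA-arm reads as library size 63 and 10. miR-302d-3p no longer passed without E14 mPGCLC replicate 1, E14 mPGCLC replicate 2 or BG5 mPGCLC replicate 2, with edgeR adjusted p of 0.0803, 0.0696 and 0.135. The log2 fold change of miR-302a-5p was 3.81 (SE 1.31, edgeR adjusted p = 0.0900; past the threshold in 9 of 20 alternatives), and that of miR-302a-3p was 3.16 (SE 1.57, edgeR adjusted p = 0.321). Other miRNAs moved in the same comparison. Of 12 tested let-7 arms 9 were called lower in BG5 mPGCLCs (median log2 fold change -3.47), beside 4.81% of all tested arms called lower, and of 5 mesenchyme arms (miR-199 and miR-214) 2 were called higher (median 2.59). Their part in the miR-302 difference was not tested.

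Among the non-PGCLCs, the cluster was lowest in SGET. miR-302b-3p was at 112 and 66.7 RPM in SGET, below all 4 E14 and BG5 non-PGCLC libraries, and its log2 fold change against E14 was -1.78 (SE 0.40, edgeR adjusted p = 0.0182). miR-302d-3p was at 31.6 and 6.04 RPM, with a log2 fold change of -2.99 against E14 (SE 0.72, edgeR adjusted p = 0.0253). These 2 of 8 tested arms were called lower, beside 2.85% of all tested arms called lower. Over all arms 10 were called higher and 16 lower, without TMM 16 and 8, with miRNA-arm reads as library size 4 and 16, and with DESeq2 40 and 36. In the same comparison 3 of 12 tested let-7 arms (median log2 fold change -1.08) and 1 of 5 mesenchyme arms (median -1.96) were called lower in SGET, and 1 of 7 epithelium arms was called higher (median 1.18). Their part in the difference was not tested.

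Both SGET calls were lost in 6 of 21 alternatives, while the log2 values stayed negative, from -2.34 to -1.24 for miR-302b-3p and from -4.80 to -2.07 for miR-302d-3p. The value of miR-302d-3p was -4.80 without SGET non-PGCLC replicate 1 and -2.07 without replicate 2. Scaled on total reads without TMM, the edgeR adjusted p was 0.111 for miR-302b-3p and 0.0591 for miR-302d-3p. They were also lost with only the groups compared (0.235 and 0.334) and without BG5 mPGCLC replicate 2 (0.0510 and 0.0680). Leaving out E14 non-PGCLC replicate 1 gave 0.0797 and 0.0597, leaving out E14 non-PGCLC replicate 2 gave 0.127 and 0.240, and leaving out SGET non-PGCLC replicate 2 gave 0.156 and 0.0973.

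No cluster arm was called between BG5 and E14 non-PGCLCs, beside 15.5% of all tested arms called in either direction. In the cluster 1 arm had an unadjusted edgeR p under 0.05. DESeq2 called 0 of the cluster arms, beside 149 of all 561 tested arms. Over all arms edgeR called 44 higher in BG5 and 43 lower. Without TMM, which moved the median of all arms by 1.04, it called 72 and 22, or 63 and 26 with miRNA-arm reads as library size. For miR-302d-3p the log2 fold change was -2.01 (SE 0.70, edgeR adjusted p = 0.0638; past the threshold in 5 of 21 alternatives, log2 -2.52 to -0.97 over all 21), with 56.2 and 53.9 RPM in BG5 against 66.6 and 150 RPM in E14. For miR-302b-3p it was -0.68 (SE 0.39, edgeR adjusted p = 0.315), although its RPM values were higher in both BG5 libraries (287 and 266) than in both E14 libraries (218 and 221). Without TMM the value for miR-302b-3p turned to 0.33 (edgeR adjusted p = 0.686). Between SGET and BG5 non-PGCLCs no cluster arm was called either, beside 18.7% of all tested arms, with 51 called higher in SGET and 54 lower, or 34 and 69 without TMM and 34 and 76 with miRNA-arm reads as library size. miR-302b-3p had a log2 fold change of -1.10 (SE 0.39, edgeR adjusted p = 0.0615) and was the 1 arm of the cluster with an unadjusted edgeR p under 0.05. It passed in 11 of 21 alternatives (log2 -1.87 to -0.37 over all 21), among them DESeq2 (adjusted p = 0.0357), edgeR without TMM (-1.63, adjusted p = 0.0116) and edgeR with miRNA-arm reads as library size (-1.87, adjusted p = 0.00118).

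The seed AAGUGCU is read out mainly from 2 clusters, so the miR-302 reads were set beside those of the miR-290 cluster. Representative miR-290 cluster arms with this seed (RefSeq, GRCm38.p6, plus strand, seed in capitals) are shown to compare them with the miR-302 sequences above.

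miR-291a-3p (chr7:3218968-3218989): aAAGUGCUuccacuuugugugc
miR-294-3p (chr7:3220691-3220712): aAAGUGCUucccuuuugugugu
miR-295-3p (chr7:3220815-3220837): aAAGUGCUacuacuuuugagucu

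Reads beginning with this seed at positions 2 to 8 came to 18951 and 17828 RPM in E14 mPGCLCs, and the miR-302/miR-367 cluster supplied 1.74% and 1.52% of them. In BG5 mPGCLCs there were fewer such reads, 11173 and 8278 RPM, and the cluster supplied 34.2% and 43.7%. The cluster's share was thus higher in BG5 mPGCLCs while the total was lower than in both E14 mPGCLC libraries.

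In BG5 non-PGCLCs the seed reads were scarce at 858 and 1208 RPM, but the cluster still supplied 30.8% and 24.6%. E14 non-PGCLCs had 12583 and 8215 RPM with 2.51% and 4.31% from the cluster, and SGET non-PGCLCs had 10955 and 15282 RPM with 1.29% and 0.482%. All 4 BG5 libraries therefore had a higher share from the cluster than the 6 libraries of E14 and SGET. In every library most of the other reads with this seed came from the miR-290 cluster, which supplied 55.5% to 98.97% of all, and other hairpins supplied up to 8.40%.

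**Figure D3:**
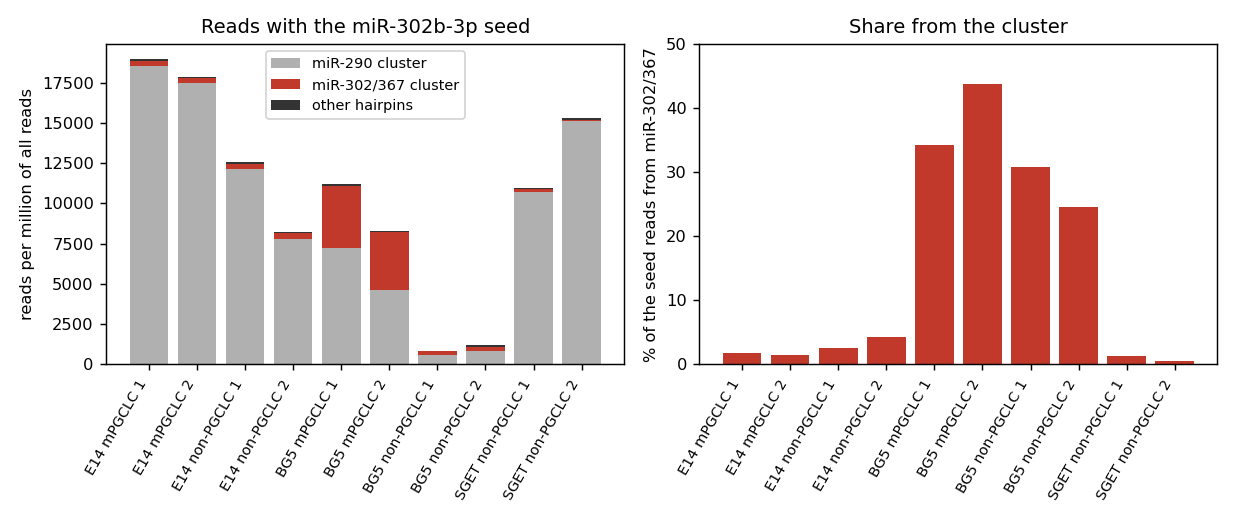
Left, RPM of all reads that carry the seed of miR-302b-3p, stacked by source (miR-290 cluster, miR-302/miR-367 cluster, other hairpins), for each of the 10 libraries. Right, the percentage of these reads from the miR-302/miR-367 cluster, which runs from 24.6% to 43.7% in the 4 BG5 libraries and from 0.482% to 4.31% in the others.

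The list of miR-290 cluster 3p arms compared with miR-302b-3p had 5 members, all tested. RefSeq gives the same seed for miR-291a-3p, miR-294-3p and miR-295-3p and another for miR-291b-3p, and miR-292-3p was not matched. In the reads, the seed AAGUGCU stood at positions 2 to 8 in 98.2% of miR-294-3p, 93.8% of miR-291a-3p and 78.2% of miR-295-3p reads, and in 0 of the 958859 reads of miR-292-3p and 0 of the 3348 reads of miR-291b-3p. These last arms are thus neighbours in the miR-290 cluster without this seed. In BG5, 4 of the 5 were called higher in mPGCLCs (median log2 fold change 3.53), beside 8.38% of all tested arms, and in E14 none was called (median 0.62), beside 2.85% called in either direction. The interaction was called higher for the same number, 4 of the 5 (median 2.91), and for 12 of the 14 tested arms of the whole miR-290 cluster (median 2.93), beside 3.92% of all tested arms. Between BG5 and E14 mPGCLCs 4 of the 5 were called lower in BG5 (median -1.82), beside 4.81% of all tested arms called lower, the opposite direction to miR-302b-3p and miR-302d-3p in that comparison.

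The most-read of them, miR-292-3p, was at 5543 ± 968 RPM (SD, n = 2) in BG5 mPGCLCs and 18549 ± 360 RPM (SD, n = 2) in E14 mPGCLCs. miR-294-3p was at 3741 ± 1242 RPM and 10904 ± 397 RPM, and miR-295-3p at 1650 ± 260 RPM and 5348 ± 36.5 RPM (SD, n = 2 each). The log2 ratio of miR-302b-3p to miR-292-3p was -6.22 and -7.01 in E14 mPGCLCs and -1.02 and -0.90 in BG5 mPGCLCs. It was -5.73 and -5.45 in E14 non-PGCLCs, -1.04 and -1.72 in BG5 non-PGCLCs, and -6.87 and -7.73 in SGET non-PGCLCs.

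For this log2 ratio the mPGCLC libraries were below the non-PGCLC libraries in E14. In BG5 they were above them, but the nearest libraries were almost level, at -1.02 in mPGCLCs and -1.04 in non-PGCLCs. Over E14 and BG5 together it was -3.79 ± 3.28 in mPGCLCs and -3.48 ± 2.45 in non-PGCLCs (SD, n = 4 each), a difference of -0.30 that did not pass (2-sided exact permutation test, p = 0.80, adjusted p = 1 over 5 such tests). Counted over the whole clusters, there were 13.99 and 9.94 miR-290 reads for each miR-302/miR-367 read in BG5 mPGCLCs, and 505 and 592 in E14 mPGCLCs.

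The seed family of miR-367-3p was read out almost wholly from other hairpins. miR-367 supplied at most 0.0643% of the reads with the seed AUUGCAC, in BG5 mPGCLC replicate 2. Of 6 other arms with this seed, from the miR-17-92, miR-106b-25 and related hairpins, 4 were called higher in BG5 mPGCLCs (median log2 fold change 1.32), beside 8.38% of all tested arms. In E14 none was called (median 0.59), beside 2.85% called in either direction. The interaction was called higher for 1 of the 6 (median 0.81), beside 3.92% of all tested arms. The most read were miR-92-1-3p, miR-92-2-3p and miR-25-3p, at 16607 ± 3454, 6372 ± 1114 and 1097 ± 257 RPM in BG5 mPGCLCs (SD, n = 2 each). The first 2 come from near-identical hairpins, and their division is uncertain.

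The 5′ ends of the reads decide the seed that each molecule presents, so the starts were compared with those of RefSeq. Most 3p reads began where RefSeq places the arm, 87.3% for miR-302b-3p and 96.6% for miR-302d-3p. Of the miR-302b-3p reads 12.3% began 1 nt later and so carried the seed AGUGCUU, the one that RefSeq gives for miR-302c-3p. The arms differed in this. All 160 reads of miR-302b-5p and 71.1% of those of miR-302d-5p began at the RefSeq start, against 45.8% for miR-367-3p. Of the miR-302a-5p reads 89.3% began 3 nt after the RefSeq start, with the seed AAACGUG in place of CUUAAAC, and 82.8% of the miR-302c-5p reads began 2 nt after it.

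The most-read forms at shifted starts are shown as DNA letters from the reads, with positions 2 to 8 of the read in capitals. Beside them stand the most-read forms of miR-302b-3p and miR-302c-3p at the RefSeq start.

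miR-302b-3p, RefSeq start, 48514 reads: tAAGTGCTtccatgttttagtag
miR-302b-3p, start +1 nt, 6885 reads: aAGTGCTTccatgttttagtag
miR-302c-3p, RefSeq start, 660 reads: aAGTGCTTccatgtttcagtggt
miR-302a-5p, start +3 nt, 11087 reads: tAAACGTGgttgtacttgcttt
miR-302c-5p, start +2 nt, 690 reads: tTTAACATggggttacctgct
miR-302d-5p, start -1 nt, 244 reads: tACTTTAAcatggaggcacttgct
miR-367-3p, start +1 nt, 228 reads: aTTGCACTttagcaatggtga

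By the seeds of the reads themselves, 75.6% of all cluster reads carried AAGUGCU, 11.2% carried AAACGUG, and 8.61% carried AGUGCUU. The second of these seeds came from the shifted miR-302a-5p. Of the third, miR-302b-3p gave 8411 reads and miR-302c-3p 887.

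The shifted miR-302b-3p start varied between libraries. It made up 17.1% and 14.7% of the arm's reads in E14 mPGCLCs and 11.9% and 10.9% in BG5 mPGCLCs. In non-PGCLCs it ranged from 0.767% in SGET replicate 2 to 38.5% in BG5 replicate 1, with 1.05% and 13.3% in E14. Within each of the 3 non-PGCLC groups the 2 libraries differed more than the mPGCLC libraries did. For miR-302a-5p the start at +3 nt held 78.0% and 80.2% of reads in E14 mPGCLCs, 95.7% and 83.1% in BG5 mPGCLCs, and 99.3% to 100% in the 4 non-PGCLC libraries of those lines. In SGET non-PGCLC replicate 1 it was 47.9% of 96 reads, and replicate 2 had 0 reads of the arm. miR-302a-5p had 2 to 31 distinct sequences in a library, and the number of molecules behind its reads is unknown.

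**Figure D4:**
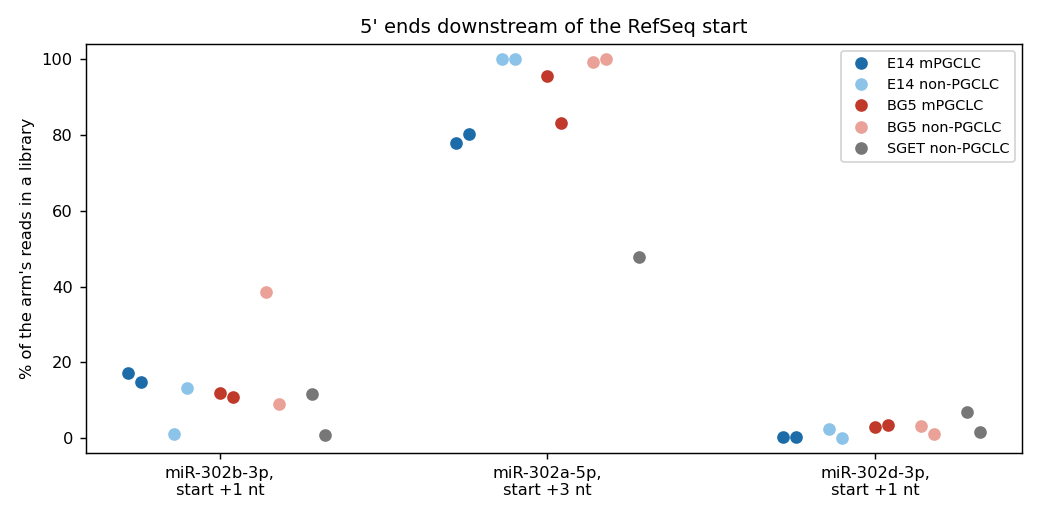
Percentage of an arm's reads in a library that begin 1 nt (miR-302b-3p, miR-302d-3p) or 3 nt (miR-302a-5p) after the RefSeq start, with 1 point per library, coloured by group. The miR-302b-3p start at +1 nt is highest in BG5 non-PGCLC replicate 1 (38.5%), and the miR-302a-5p start at +3 nt is at or above 47.9% in the 9 libraries with reads.

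The 3′ ends differed between arms. The last base did not match the hairpin in 4.86% of miR-302b-3p reads and 1.31% of miR-302d-3p reads. In miR-302c-3p it did not match in 72.3% of 1033 reads, nearly always because of an added U (72.0%), which is the final T of the form shown above. In the 2 BG5 mPGCLC libraries, which held most of these reads, the percentage was 70.2% and 72.8%, from 3 and 9 distinct sequences.

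Read properties over the whole cluster were compared between the 4 mPGCLC and 4 non-PGCLC libraries of E14 and BG5 with 2-sided exact permutation tests, for which the smallest p is 0.0286. The labels were permuted across both lines, so differences between the lines add to the spread under permutation. The 3p reads with an unmatched last base made up 6.30% ± 2.04 in mPGCLCs and 3.33% ± 1.77 in non-PGCLCs (SD, n = 4 each). The difference of 2.97 percentage points did not pass (exact p = 0.0857, adjusted p = 0.429). Within lines it was 7.18% and 8.65% against 4.09% and 4.83% in E14, and 4.01% and 5.35% against 3.62% and 0.775% in BG5, without overlap in either line.

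The 5p share of cluster reads was 14.5% ± 3.66 in mPGCLCs and 9.86% ± 5.34 in non-PGCLCs (SD, n = 4 each; exact permutation p = 0.371, adjusted p = 0.929). Within BG5 it was 15.7% and 16.98% against 4.22% and 9.09%, and within E14 16.1% and 9.03% against 17.1% and 9.05%. The share of 3p reads with the seed of the arm's most-read start was 89.8% ± 0.890 and 88.1% ± 12.5 (exact permutation p = 1, adjusted p = 1), and the mean length of 3p reads was 22.8 ± 0.0610 nt and 22.7 ± 0.253 nt (exact permutation p = 0.629, adjusted p = 1; SD, n = 4 each). Within E14 the seed share was 88.6% and 90.0% in mPGCLCs against 98.0% and 92.4% in non-PGCLCs, and within BG5 89.8% and 90.8% against 69.8% and 92.3%. Mean lengths within E14 were 22.7 and 22.8 nt against 22.9 and 22.7 nt, and within BG5 22.8 and 22.9 nt against 22.4 and 22.8 nt.

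Arms of the cluster varied together over the 10 libraries, as a description without a test, in which depth and library are shared. On log2(RPM + 1), Pearson's r with miR-302b-3p was 0.92 for miR-302d-3p, 0.92 for miR-302a-5p, 0.81 for miR-302a-3p and 0.26 for miR-367-3p. The BG5 mPGCLC libraries lie far from the rest on these axes. The makeup of the cluster differed between libraries. miR-302b reads were 44.0% to 60.3% of the cluster in the mPGCLC libraries, 50.4% and 56.1% in E14 non-PGCLCs, 72.4% and 75.2% in BG5 non-PGCLCs, and 65.5% and 88.4% in SGET non-PGCLCs.

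The arms outside the cluster with the highest correlation with its sum over the 10 libraries were miR-653-5p (Pearson's r = 0.92), miR-186-3p (0.90), miR-758-5p (0.90), miR-219a-1-5p (0.89) and miR-1224-5p (0.87). They were scarce, with 91.7 ± 3.42 RPM (SD, n = 2) of miR-653-5p and 4.02 ± 1.23 RPM (SD, n = 2) of miR-186-3p in BG5 mPGCLCs, and at or near 0 elsewhere. These arms passed the low-count filter through BG5 mPGCLCs, where the cluster is also highest. Their r thus sets the 2 libraries of that group against the rest, and no support is taken from it. The least alike were miR-22-3p (-0.96), miR-361-5p (-0.85) and let-7g-5p (-0.83). let-7g-5p, of a family known to rise with differentiation, was at 110 ± 33.3 RPM in BG5 mPGCLCs and 1628 ± 359 RPM in BG5 non-PGCLCs (SD, n = 2 each).

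miRNA markers of other cell types were set beside the cluster, as sums of all arms of each list from the lower to the higher library of a group. The mesenchyme list (miR-199 and miR-214, 5 arms) summed to 13165 to 22031 RPM in BG5 non-PGCLCs, 1060 to 1242 in E14 non-PGCLCs, 425 to 427 in SGET non-PGCLCs, 116 to 144 in BG5 mPGCLCs and 19.0 to 23.6 in E14 mPGCLCs. Of its 5 arms 3 were called lower in mPGCLCs in BG5 (median log2 fold change -6.35) and 2 in E14 (median -6.43), beside 5.7% and 2.32% of all tested arms called lower. miR-199b-5p was at 0 in both mPGCLC groups and miR-214-5p in E14 mPGCLCs. The let-7 list (14 arms, 12 tested) summed to 24706 to 31464 RPM in BG5 non-PGCLCs, 823 to 1631 in BG5 mPGCLCs, 7932 to 9981 in E14 mPGCLCs, 5910 to 6646 in E14 non-PGCLCs and 4180 to 4314 in SGET non-PGCLCs. Of the 12 tested arms 9 were called lower in mPGCLCs in BG5, beside the same 5.7% of all tested arms. In E14 edgeR called 0 (median log2 fold change 0.18), beside 2.85% of all tested arms in either direction. Both lists were lower in mPGCLCs in BG5, where the called miR-302 arms were higher, and their part in the miR-302 difference was not tested.

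The miR-290 list, which marks naive pluripotent and germ cells, had 15 arms with 14 tested. It was at 196281 to 223933 RPM in E14 mPGCLCs, 93158 to 134789 in E14 non-PGCLCs, 48473 to 71193 in BG5 mPGCLCs, 7803 to 9058 in BG5 non-PGCLCs and 145736 to 161232 in SGET non-PGCLCs. The mPGCLC libraries were above the non-PGCLC libraries of the same line in both lines, with 12 of the 14 arms called higher in BG5, beside 8.38% of all tested arms, and 0 called in E14 (edgeR, median log2 fold change 0.61), beside 2.85% in either direction. The surrounding cells of E14 and SGET also had high levels, above those of BG5 mPGCLCs.

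The epithelium list (miR-200 family, 8 arms) was at 3172 to 4337 RPM in BG5 mPGCLCs, 1386 to 1399 in BG5 non-PGCLCs, 1901 to 1984 in E14 mPGCLCs, 1114 to 1133 in E14 non-PGCLCs and 2693 to 3031 in SGET non-PGCLCs. Of its 7 tested arms 3 were called higher in mPGCLCs in BG5, beside 8.38% of all tested arms. In E14 0 were called (edgeR), beside 2.85% of all tested arms in either direction. Lists for blood and endothelium (17.7 to 193 RPM), endoderm (11.4 to 340 RPM) and neural cells (181 to 701 RPM) were lower over the 10 libraries. None of their arms was called between mPGCLCs and non-PGCLCs in either line. Beside this, edgeR called 79 of all 561 tested arms in BG5 and 16 in E14, in either direction.

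Since several arms of the 5 hairpins moved together, the start of Gm51018 is shown. The 150 bases are from RefSeq (GRCm38.p6, plus strand, chr3:127544989-127545138). The capitals mark the match to the TATA box motif TATAAA.

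Gm51018 start region: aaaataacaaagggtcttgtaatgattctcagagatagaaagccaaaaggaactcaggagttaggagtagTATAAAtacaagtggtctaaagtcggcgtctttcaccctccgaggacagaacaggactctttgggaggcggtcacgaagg

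The motif was searched on both strands of the RefSeq window and occurs once on its plus strand, 30 bases before the start of the gene. The searched window has 300 bases, the printed ones included. The motif occurs on either strand in 13.6% of the 32851 such windows in the RefSeq table, so the match is only a description of the sequence.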

How the data were processed

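Small RNA of 10 samples was analysed from tables of read sequences with their raw counts, deposited by the authors as a file per sample. Libraries were made with the NextFlex small RNA kit v3, and reads were trimmed with cutadapt 3.2, per the labels. The authors mapped reads with STAR 2.5.3a to GRCm38. The deposited counts are per distinct sequence, and the random adapter bases were not used to remove duplicates.

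Reads of 18 to 26 nt were assigned to 1174 hairpins (GENCODE vM21, GRCm38) by their first 18 bases, exactly and in sense, with up to 2 later mismatches. Best matches were kept and ties between arms set apart. Levels are reads scaled to all reads of the library (reads-per-million, RPM). The 763 arms with reads were filtered with filterByExpr, leaving 561, and fitted with edgeR 4.0.16 (R 4.3.3; TMM, quasi-likelihood test, 5 group means, 8 contrasts). P-values were adjusted by Benjamini-Hochberg over all tested arms with a threshold of 0.05. The fit was tested on simulated data. Read properties and the log2 ratio were compared with 2-sided exact permutation tests, adjusted over 5 tests. Their labels were permuted across E14 and BG5 without keeping the lines apart.

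Named were all cluster arms, lists of arms compared with the seeds of miR-302b-3p (miR-290 cluster 3p arms, of which miR-291b-3p and miR-292-3p do not carry it) and miR-367-3p, with values for the 3 most read, the 5 arms most like and the 3 least like the cluster, and miRNA marker lists for mesenchyme, blood and endothelium, epithelium, endoderm, neural cells, let-7 and the miR-290 cluster. The members and lists were chosen with earlier results of these data known. Alternatives were DESeq2 1.42.0, other scalings, filters, samples, match rules and lengths, a replicate block and leaving out each replicate. Same-numbered samples did not deviate together (r = -0.05 in E14 and -0.004 in BG5 over 561 arms), so the numbers were not taken as pairs.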

Additional observations from a re-analysis of the deposited data

Results flagged for a closer look

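The effect of mPGCLCs against non-PGCLCs differed between BG5 and E14 for miR-302b-3p, by a log2 value of 4.398 in the edgeR interaction test (adjusted p = 4.42e-05), and for miR-302d-3p, by 5.13 (adjusted p = 0.00234). Both interactions passed under all 21 alternatives run. miR-302b-3p was higher in 2 of 2 BG5 mPGCLC libraries than in both BG5 non-PGCLC libraries, while in E14 the libraries overlapped on RPM of all reads. Scaled to miRNA-arm reads, miR-302b-3p was lower in E14 mPGCLCs (711 and 463) than in E14 non-PGCLCs (948 and 1235). The interaction was also called higher for 12 of the 14 tested arms of the miR-290 cluster (edgeR), beside 3.92% of all tested arms. The summed mesenchyme markers also differed between the non-PGCLCs of the lines, at 13165 to 22031 RPM in BG5 and 1060 to 1242 in E14, and their part in the interaction was not tested. The lines further differ in strain and in the surface or reporter markers of the sort, and these cannot be told apart.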

How the results depend on the processing

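With 2 libraries a group, the spread is shared over groups and a change of several fold in a scarce arm can be missed. In BG5, miR-302b-3p and miR-302d-3p passed under all 21 alternatives run, DESeq2 among them, with log2 fold changes of 3.36 to 4.29 and 4.31 to 5.39. For each statement that follows the cause was not tested.

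DESeq2 called more arms in every comparison. It called 143 against 83 for the mean over both lines, 55 against 16 in E14, 121 against 79 in BG5, 76 against 32 for the interaction, 149 against 87 between BG5 and E14 non-PGCLCs, 76 against 26 between SGET and E14, 175 against 105 between SGET and BG5, and 103 against 57 between the mPGCLCs. In E14 the count of 16 became 8 without TMM, 26 with miRNA-arm reads as library size, 30 without the low-count filter and 8 with only the groups compared. SGET against E14 gave 9 with only the groups compared.

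With the replicate number as a block, the counts were 91 for the mean, 26 in E14, 87 in BG5, 40 for the interaction, 95, 35 and 115 among the non-PGCLC comparisons above and 67 between the mPGCLCs. The block brought miR-302a-5p past the threshold for the mean, for the interaction (adjusted p = 0.000245) and between the mPGCLCs, and also miR-302d-3p between BG5 and E14 non-PGCLCs and miR-302b-3p between SGET and BG5. It changed none of the exact tests, in which it allows no p under 0.125.

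Leaving out each library in turn gave 68 to 101 calls for the mean, 7 to 29 in E14, 60 to 90 in BG5, 27 to 46 for the interaction, 64 to 111 between BG5 and E14 non-PGCLCs, 2 to 42 between SGET and E14, 92 to 125 between SGET and BG5, and 44 to 69 between the mPGCLCs. In E14 miR-302d-3p (-0.09) turned to 0.13 without TMM, 0.038 with at least 10 reads in every library, 0.71 without E14 non-PGCLC replicate 2 (range with a library left out -0.60 to 0.71), 0.04 without BG5 non-PGCLC replicate 1 and 0.04 without SGET non-PGCLC replicate 2. miR-302b-3p between BG5 and E14 non-PGCLCs turned to 0.33 without TMM, and miR-302d-3p between SGET and BG5 to 0.13 without SGET non-PGCLC replicate 2 (range -2.79 to 0.13).

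The difference in the cluster sum was 4608 RPM in BG5 (4503 to 4713 with a library left out), 4388 with exact matches and 26574 when scaled to miRNA-arm reads. In E14 it was -26.0 RPM, -903 when scaled to miRNA-arm reads, and -81.8 to 29.7 with a library left out, the last without E14 mPGCLC replicate 2. With a library left out, the difference in the 5p share was 2.72 to 7.01 percentage points, in the share with the main seed -4.45 to 4.98, in the unmatched last base 2.12 to 3.73 and in mean length -0.0244 to 0.170 nt. The seed share and length turned without BG5 non-PGCLC replicate 1. The log2 ratio difference ran from -1.27 to 0.77 and turned to 0.51 and 0.77 without E14 mPGCLC replicates 1 and 2, and to 0.51 and 0.28 without BG5 non-PGCLC replicates 1 and 2. Using miR-294-3p, which carries the seed, in place of miR-292-3p gave -0.34, was chosen after seeing the data and moved no result past the threshold.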
